A study of Mus musculus with 19 samples.

Results

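The 46 genes described here encode the machinery that brings new proteins into the endoplasmic reticulum (ER), adds sugars to them and packs them for the Golgi. They were picked by gene symbol, and no measured value enters the rule, although results of these data were known when the set was drawn up. All 46 were found among the 51789 genes counted. They fell into 8 complexes or families: 3 genes of the signal recognition particle (SRP) and its receptor, 6 of the Sec61 translocon, 4 of the translocon-associated protein complex (TRAP) and 5 of signal peptidase. A further 9 belonged to oligosaccharyltransferase, 11 to the COPII coat, 5 were cargo receptors and 3 were KDEL receptors. In dorsal hippocampus none of the 46 passed the test in any of the 3 comparisons the design allows, where 0.00893%, 0.0897% and 0.358% of all genes did. The ER chaperone gene Hspa5, given for reference, rose after the exposure labelled SOR, a call that was lost on leaving out any 1 of 5 of the 8 libraries.

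A protein bound for the secretory pathway is recognised by SRP as its signal sequence leaves the ribosome, and is handed to the SRP receptor on the ER membrane. It then passes through the Sec61 channel, where signal peptidase removes the signal sequence and oligosaccharyltransferase attaches a preassembled glycan to asparagine. Folded cargo leaves in COPII vesicles, and KDEL receptors return escaped ER chaperones from the Golgi. In neurons this route supplies the receptors, channels and adhesion molecules of synapses, and in many cell types several of its genes are targets of the unfolded protein response, the programme that also drives the chaperone gene Hspa5.

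RNA was sequenced from 19 dorsal hippocampus samples of male C57BL/6J mice aged 2 to 4 months, as total RNA depleted of ribosomal RNA. Experiment 1 held 5 mice that carried both the transactivator tTA and the DN transgene (tTA+/DN+) and 6 tTA+/DN- controls, all exposed to SOR. Experiment 2 held only DN- mice, 4 of them exposed to SOR (3 tTA+, 1 tTA-) and 4 kept in the homecage (2 tTA+, 2 tTA-). The transgenic mice are called Nr4ADN by the submitters, after the Nr4a nuclear receptors. The labels spell out neither SOR nor the promoter that drives tTA, so the cells that carry DN are not given, and whole tissue also contains glia and vessels. Because every mouse of experiment 1 had the SOR exposure, DN was never measured at rest. A lower value in such tissue can come from fewer cells of a type or from less RNA per cell, and these cannot be told apart. The labels do not say outright that each library is a different mouse, so p-values measure the spread between these libraries.

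Totals ran from 22258159 to 66991576 counts per library. The 8 neuronal markers summed to between 2392 and 3176 CPM (counts relative to the library total) in every library, whereas the 8 choroid plexus markers summed to 1350 and 4115 in controls 2 and 1 of experiment 1, to 1643 in DN replicate 2, and to 992 and 2182 in SOR replicates 1 and 2 of experiment 2. In the other 14 libraries they summed to between 21.5 and 173. SOR replicate 3 of experiment 2 had the smallest total and also stood apart among the 46 genes: of the 8 libraries of its experiment it was the lowest for 15 genes and the highest for 9. Homecage replicate 2 was the lowest for 21. The median coefficient of variation of the 46 genes was 4.09% among DN mice and 4.83% among controls of experiment 1, against 11.5% among SOR mice and 7.28% among homecage mice of experiment 2.

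In all 3 comparisons the differences of these genes were small. Between DN and control mice 33 of the 46 lay below 0 on the log2 scale and 13 above, where 50% of all genes lay on either side, with a median difference of -0.02, where the median of all genes was at 6.2e-05. After SOR 35 lay above 0 and 11 below, beside 51.5% and 48.5% of all genes, with a median of 0.09 beside 0.0076 for all genes. Between tTA+ and tTA- mice 32 lay above 0 and 14 below, beside 53.2% and 46.8%, with a median of 0.04 beside 0.013. By edgeR's quasi-likelihood test with Benjamini-Hochberg adjustment over all genes, 0 of 46 were called with DN, where 0.00893% of 22391 tested genes were. After SOR it was 0 of 46, where 0.0897% of 22305 genes were called, and with tTA 0 of 46, where 0.358% of 22904 genes were. The smallest adjusted p among the 46 was 0.999, 0.621 and 0.9999 in turn. DESeq2 and limma-voom, run as alternatives, also called 0 of 46 in each. Of all genes, DESeq2 called 2, 122 and 253 in turn, and limma-voom 2, 24 and 98.

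Before adjustment, 4 of 46 (8.70%) had a p under 0.05 with DN, beside 3.83% of all genes, namely Kdelr3 above 0 (2.02% of all genes) and Ostc, Spcs2 and Magt1 below (1.81%). After SOR 3 of 46 (6.52%) did, beside 7.6% of all genes, namely Rpn1, Magt1 and Surf4, all above 0 (3.67%). With tTA none did, beside 5.71% of all genes. Libraries of the 2 groups did not overlap for 0 of 46 genes with DN, where 0.197% of genes lay apart above and 0.103% below. After SOR 3 of 46 lay apart, all above (Rpn1, Surf4 and Lman1), where 3.06% of genes did so.

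The intervals say what sizes of change these data leave room for. With DN, the 95% interval of 45 of 46 genes lay within 0.5 log2 units of 0, a fold of 1.41. The exception was Kdelr3, counted at about 1 CPM. After SOR 41 of 46 lay within that limit, all but Sec61g, Srp54a, Rpn1, Sec24a and Kdelr3, and with tTA 43 did, all but Sec61g, Srp54a and Kdelr3. Hspa5, the chaperone BiP, rose after SOR by 0.87 ± 0.12 (log2, SE; edgeR adjusted p = 0.0228), and the interval of 45 of the 46 genes ended short of 0.87, with Srp54a as the exception. The call rests on 8 libraries. It held in 11 of 19 alternatives, and the log2 difference lay between 0.76 and 0.93 in all of them. It was lost with tTA as a covariate (edgeR adjusted p = 0.0632), among the 5 tTA+ mice alone (0.85 ± 0.18, adjusted p = 0.998), without any one of the 4 homecage libraries or SOR replicate 1 (adjusted p from 0.0817 to 0.138), and without the libraries rich in choroid plexus markers (0.288). With DN, Hspa5 stood at -0.36 ± 0.14, with an unadjusted p under 0.05 (edgeR adjusted p = 0.999). Without the 3 libraries of experiment 1 rich in choroid plexus markers it was at -0.17 ± 0.13, and no longer had such a p.

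**Figure D1:**
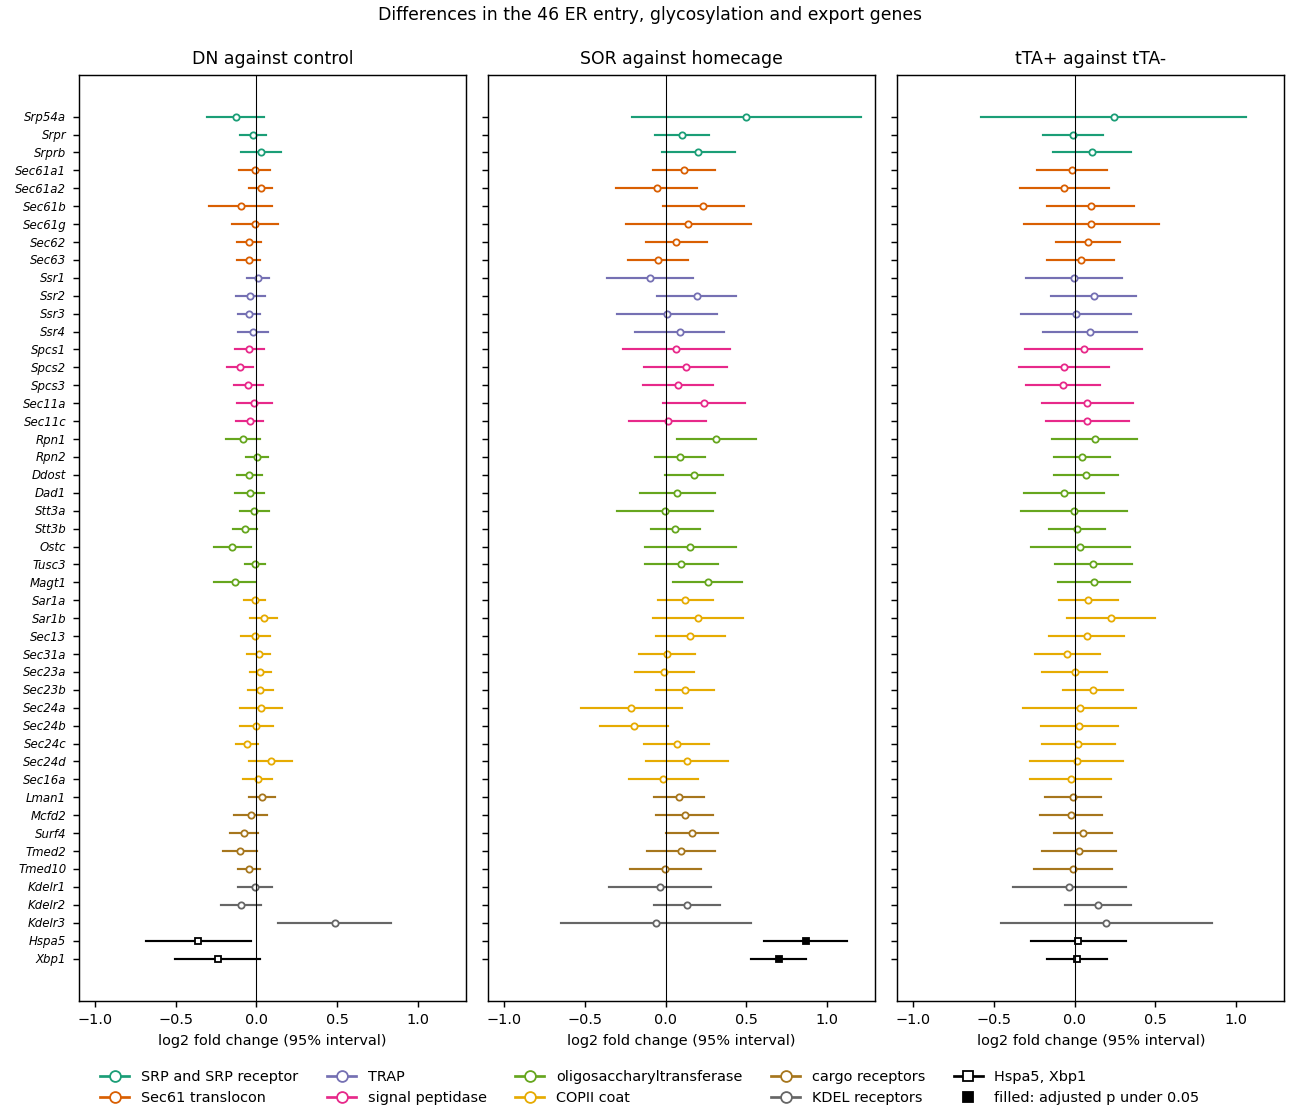
Log2 fold change of each of the 46 genes with its 95% interval in the 3 comparisons, coloured by complex, with Hspa5 and Xbp1 as squares for reference. No circle is filled, since no member passed an adjusted p of 0.05, while both squares are filled after SOR, where Hspa5 kept its call in 11 and Xbp1 in 13 of 19 alternatives; Kdelr3 has the widest interval with DN and Srp54a the widest after SOR.

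The start regions of these genes were searched for short elements that factors of the unfolded protein response and Nr4a receptors are known to bind, in RefSeq promoters of GRCm38.p6 that run from 250 bases before to 50 bases after the start site. The table held 40 promoters of 37 members, and none for the other 9 genes. On either strand, the XBP1 core ACGTGG was present in 16 of 40 (40%), beside 8.31% of all 32851 promoters and 10.5% of the 16860 promoters of tested genes. Its reverse complement contains CCACG, which 67.5% of the members' promoters held, beside 32.8% of all and 43.5% of those of tested genes. The longer element TGACGTGG, which contains the core, was in 3 (Kdelr3, Sec23a and Sec24d; 7.50%), beside 0.676% of all. The Nr4a element AAAGGTCA was in 2 (Rpn2 and Srp54a; 5%), beside 1.51% of all. The ER stress element of CCAAT, 9 bases and CCACG, the related ATTGG, 1 base and CCACG, and the cyclic AMP element TGACGTCA were in 0 of 40, beside 0.119%, 0.0365% and 1.79% of all. Median GC content was 59.8% in the members, 59.7% in tested genes and 52.7% in all. These are matches of letters and not measured binding. After SOR the median log2 difference was 0.01 in the 15 members with the core and 0.11 in the 22 without. For CCACG it was 0.07 (26 genes) and 0.12 (11), and for TGACGTGG -0.01 (3) and 0.09 (34). For AAAGGTCA it was 0.30 (2, one of them Srp54a) and 0.07 (35). With DN it was -0.01 with the core and -0.02 without. A link between elements and differences was not tested.

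The stretches shown are upstream of the start site and carry the core or a part of it: Kdelr3 and Rpn1 because they had the smallest unadjusted p with DN and after SOR, and Sec63, Ssr3, Sar1a and Mcfd2 as examples from the channel, TRAP, the coat and the cargo receptors. Capitals mark TGACGTGG read from the opposite strand in Kdelr3, CCACG in Rpn1, and ACGTGG or its reverse complement in the others. On GRCm38.p6 they lie at chr15:79516333-79516407 (plus strand, Kdelr3), chr6:88084351-88084445 (plus, Rpn1), chr10:42761429-42761495 (plus, Sec63), chr3:65392693-65392788 (minus, Ssr3), chr10:61680083-61680178 (plus, Sar1a) and chr17:87265969-87266064 (minus, Mcfd2).
Kdelr3: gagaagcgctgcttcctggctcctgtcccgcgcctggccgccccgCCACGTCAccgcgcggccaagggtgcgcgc
Rpn1: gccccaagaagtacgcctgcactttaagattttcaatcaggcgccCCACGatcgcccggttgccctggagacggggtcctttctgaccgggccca
Sec63: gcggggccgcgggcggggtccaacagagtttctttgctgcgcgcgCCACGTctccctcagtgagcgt
Ssr3: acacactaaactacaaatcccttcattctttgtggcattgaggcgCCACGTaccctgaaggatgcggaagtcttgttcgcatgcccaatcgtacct
Sar1a: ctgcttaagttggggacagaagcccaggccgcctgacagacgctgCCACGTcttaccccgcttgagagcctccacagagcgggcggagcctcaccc
Mcfd2: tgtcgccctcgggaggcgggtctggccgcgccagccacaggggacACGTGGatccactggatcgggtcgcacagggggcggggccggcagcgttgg

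At rest these genes are well expressed in dorsal hippocampus. Per kb of annotated exon, 43 of the 46 stood above the median of 22242 genes in the homecage libraries, which was 2.45 CPM per kb, and their own median was 12.6. The highest were Ddost, a scaffold subunit of oligosaccharyltransferase, at 46.9 ± 2.53 CPM per kb (SD, n = 4), Tusc3, its oxidoreductase subunit, at 46.4 ± 3.94, Sar1a, the GTPase that starts the COPII coat, at 45.3 ± 2.78, and Sec23a, of the inner coat, at 42.1 ± 1.21. The 3 genes under the median were Sec24a at 1.78 ± 0.168, Srp54a at 1.63 ± 0.231 and Kdelr3 at 0.682 ± 0.0913. The order of levels is fine-grained: 42 of 45 neighbouring pairs overlapped between libraries, and breaks came only between Tmed2 and Spcs3, between Sec11a and Sec24a, and between Srp54a and Kdelr3. Some paralogs were unequal, with Kdelr1 (16.3 CPM per kb) and Kdelr2 (13.3) far above Kdelr3, and Tusc3 above its paralog Magt1 (6.79). Others were closer, such as Sec61a2 (11.2) and Sec61a1 (10.4), Sec24b (5.93) and Sec24d (5.28), and Sar1a (45.3) and Sar1b (37.5).

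**Figure D2:**
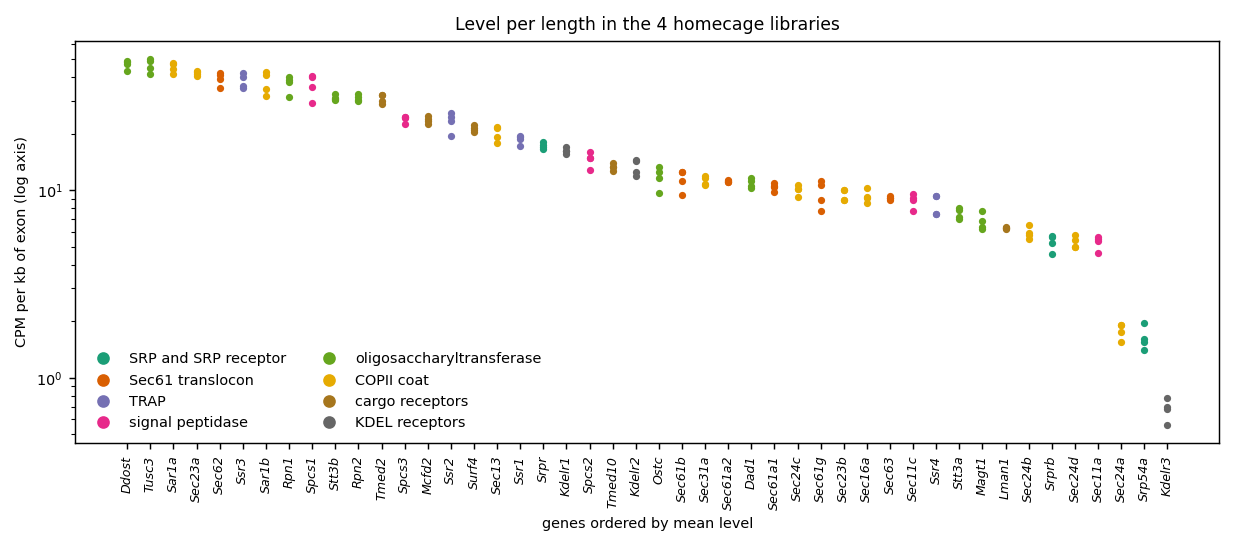
CPM per kb of exon in each of the 4 homecage libraries (points, log axis) for the 46 genes in order of mean level, coloured by complex. Levels run from 46.9 for Ddost to 0.682 for Kdelr3, and members of most complexes are spread along the order.

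SRP and its receptor bring the ribosome to the membrane. Of the 3 genes, 2 lay below 0 with DN (median -0.02) and all 3 above 0 after SOR (median 0.20), with no p under 0.05. Srpr (chr9:35200175-35247973), the receptor subunit that binds SRP, had the highest level in CPM. It was measured at 69.3, 72.2, 66.4, 66.4 and 66.1 CPM in the DN mice, against 65.1 to 73.0 in the controls, with a median of 69.0. In experiment 2 it was measured at 66.8, 62.4, 60.2 and 60.6 CPM after SOR, against 56.1, 57.4, 58.5 and 61.1 in the homecage. The groups overlapped in both experiments, and the log2 difference was -0.02 ± 0.04 (SE) with DN and 0.10 ± 0.08 after SOR.

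Srp54a, the subunit that reads the signal sequence, gave the largest difference after SOR, 0.50 ± 0.32 (SE; 95% interval -0.21 to 1.21), and it was carried by 1 library. SOR replicates 1 to 4 were at 8.47, 8.28, 24.6 and 8.61 CPM, and the homecage libraries were at 10.4, 7.46, 8.31 and 8.59. Without SOR replicate 3 the log2 difference was -0.04 ± 0.12. The genome holds near-identical copies of this gene, Srp54b and Srp54c, and the sources used here do not give how reads shared between copies were counted, so its level is uncertain. Srprb, the membrane subunit of the receptor, differed by 0.03 with DN and 0.20 after SOR.

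The Sec61 channel is built from an alpha, a beta and a gamma subunit, helped by Sec62 and Sec63. With DN 5 of its 6 genes lay below 0 (median -0.03) and after SOR 4 lay above 0 (median 0.09), again with no p under 0.05. Sec62 (chr3:30792875-30821263), which serves short precursors, had the highest level in CPM: 197, 189.9, 192, 177 and 185 CPM in DN mice and 184 to 203 in controls, with a median of 193. After SOR it stood at 184, 175, 167 and 193 CPM and in the homecage at 169, 153, 179.8 and 184. The libraries of the groups were interleaved, and the log2 difference was -0.05 ± 0.04 with DN and 0.07 ± 0.09 after SOR. The pore subunits differed by -0.01 (Sec61a1) and 0.03 (Sec61a2) with DN and by 0.11 and -0.06 after SOR. The small subunits Sec61b and Sec61g stood at 0.23 and 0.14 after SOR, and Sec63, a partner of the chaperone BiP, at -0.04.

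TRAP sits beside the channel and helps some signal sequences to enter. With DN 3 of its 4 genes lay below 0 (median -0.03) and after SOR 3 lay above (median 0.05). Ssr1 (chr13:37966605-37994217), its alpha subunit, was at 203, 207, 207, 195 and 193 CPM in DN mice and at 193 to 204 in controls, with a median of 201. In experiment 2 it was at 191, 204, 135 and 199 CPM after SOR, against 179, 203, 202 and 196 in the homecage. SOR replicate 3 was the low value, and the log2 difference was -0.10 ± 0.12 after SOR and 0.01 ± 0.03 with DN. The other subunits Ssr2, Ssr3 and Ssr4 differed by 0.19, 0.01 and 0.09 after SOR.

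Signal peptidase cuts signal sequences off with its catalytic subunits Sec11a and Sec11c and the accessory subunits Spcs1 to Spcs3. All 5 genes lay below 0 with DN, at a median of -0.04, and all 5 above 0 after SOR, at a median of 0.08. Spcs3 (chr8:54520433-54529998) had the highest level in CPM, at 87.0, 75.1, 82.1, 80.0 and 79.6 CPM in DN mice and 78.0 to 90.7 in controls, with a median of 83.0. After SOR it was at 100.2, 82.0, 74.5 and 93.6 CPM and in the homecage at 84.3, 78.0, 85.3 and 85.1, so the SOR mice spanned the homecage range on either side. Its log2 difference was -0.05 ± 0.04 with DN and 0.08 ± 0.10 after SOR.

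Spcs2 (chr7:99837569-99863462), a subunit of the same complex, was at 72.7, 66.97, 65.8, 68.8 and 66.1 CPM in DN mice and at 69.1 to 75.6 in controls, with a median of 74.5. DN replicate 1 stood inside the control range, and the other 4 below it. The log2 difference was -0.10 ± 0.04 (edgeR adjusted p = 0.999). Without the 3 libraries of experiment 1 rich in choroid plexus markers it was -0.07 ± 0.05. In experiment 2 Spcs2 was at 80.7, 58.5, 58.5 and 71.2 CPM after SOR, against 62.6, 53.9, 67.4 and 63.0 in the homecage, a difference of 0.12 ± 0.12. The catalytic subunit Sec11a stood at 0.24 after SOR and -0.01 with DN.

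Oligosaccharyltransferase, with 9 of the 46 genes, held 3 of the 6 with an unadjusted p under 0.05, and none was called. Such a p was found for 2 of its 9 genes with DN and 2 of 9 after SOR, beside 3.83% and 7.6% of all genes. With DN 8 of its 9 genes lay below 0 (median -0.04), and after SOR 8 of 9 lay above 0 (median 0.10). Rpn1 (chr6:88084482-88105304), ribophorin I, which ties the enzyme to the ribosome, was at 205, 181, 247 and 198 CPM after SOR, against 171, 141, 180.4 and 175 in the homecage. Every SOR library was above every homecage library, by a narrow margin between SOR replicate 2 and homecage replicate 3. The log2 difference was 0.31 ± 0.11 (95% interval 0.07 to 0.56; edgeR adjusted p = 0.621). The highest library was SOR replicate 3, without which the difference was 0.22 ± 0.09. In experiment 1 Rpn1 was at 165, 157, 152, 156 and 146 CPM in DN mice and at 149.6 to 180.0 in controls, with a median of 163, a log2 difference of -0.08 ± 0.05.

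Magt1 (chrX:105968084-106011906), the oxidoreductase subunit that pairs with Stt3b, was the only member with an unadjusted p under 0.05 in both experiments. After SOR it was at 38.3, 37.2, 34.9 and 41.9 CPM and in the homecage at 29.8, 29.0, 36.1 and 32.1. Homecage replicate 3 was above SOR replicate 3, so the groups overlapped, and the log2 difference was 0.26 ± 0.10 (edgeR adjusted p = 0.621). In DN mice it was at 34.7, 35.8, 33.0, 34.5 and 37.5 CPM, and in controls between 33.4 and 44.97, with a median of 38.4. That difference was -0.14 ± 0.06 (edgeR adjusted p = 0.999). The 2 highest controls, at 44.97 and 40.7 CPM, were the 2 rich in choroid plexus markers, and without the 3 libraries rich in them the difference was -0.06 ± 0.06. The part of the choroid plexus in the full difference was not tested.

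Ostc (chr3:130695912-130709444), a subunit of the form of the enzyme that works at the Sec61 channel, was at 31.5, 30.6, 28.2, 29.7 and 29.98 CPM in DN mice and at 29.5 to 37.2 in controls, with a median of 32.7. The DN mice lay in the lower part of the control range or, in replicate 3, below it, and the log2 difference was -0.15 ± 0.06 (edgeR adjusted p = 0.999). Without the 3 marker-rich libraries it was -0.11 ± 0.06. After SOR Ostc was at 41.3, 31.5, 31.0 and 39.9 CPM and in the homecage at 32.1, 26.5, 34.4 and 36.4, a difference of 0.15 ± 0.13. The catalytic subunits stood near 0, Stt3a at -0.01 and Stt3b at -0.07 with DN and at 0.00 and 0.06 after SOR. The remaining subunits Rpn2, Ddost, Dad1 and Tusc3 ranged from -0.04 to 0.00 with DN and from 0.07 to 0.18 after SOR.

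The COPII coat buds vesicles from ER exit sites, and none of its subunits stood out. With DN 7 of 11 genes lay above 0 (median 0.01) and after SOR 7 lay above and 4 below (median 0.07), with no p under 0.05 in either. Sec23a (chr12:58958383-59012017), the inner coat subunit that activates the GTPase Sar1, was at 200.2, 195, 195, 196 and 197 CPM in DN mice and at 190.0 to 199.5 in controls, with a median of 192. After SOR it was at 213, 194, 180.3 and 223 CPM and in the homecage at 202, 196, 207 and 209. Its log2 difference was 0.02 ± 0.03 (95% interval -0.04 to 0.09) with DN and -0.01 ± 0.08 after SOR. The cargo-binding Sec24 paralogs did not line up after SOR, with Sec24a at -0.21, Sec24b at -0.20, Sec24c at 0.07 and Sec24d at 0.13. The GTPases Sar1a and Sar1b stood at 0.12 and 0.20 after SOR, and the outer coat subunits Sec13 and Sec31a at 0.15 and 0.01. Sec23b stood at 0.12, and Sec16a, which marks exit sites, at -0.01.

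Cargo receptors bind selected proteins inside the ER and couple them to the coat. Of 5 genes, 4 lay below 0 with DN (median -0.05) and 4 above 0 after SOR (median 0.10). Surf4 (chr2:26920040-26933928), a receptor for soluble secreted proteins, was at 78.2, 81.8, 79.3 and 74.3 CPM after SOR, against 68.6, 67.2, 70.4 and 73.4 in the homecage. The groups were apart, by a small gap between SOR replicate 4 and homecage replicate 4, and the log2 difference was 0.17 ± 0.07 (edgeR adjusted p = 0.652). In experiment 1 Surf4 was at 68.3, 69.4, 62.7, 66.7 and 63.8 CPM in DN mice and at 64.9 to 73.7 in controls, with a median of 70.1, a difference of -0.08 ± 0.04. Lman1, the mannose lectin that carries glycoproteins together with Mcfd2, was apart as well, at 58.9, 60.7, 57.8 and 58.5 CPM after SOR and 55.8, 56.5, 54.9 and 55.5 in the homecage, but the difference was only 0.08 ± 0.07.

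Tmed10 (chr12:85340614-85374847), a p24 protein that cycles between ER and Golgi, had the highest mean CPM of the cargo receptors over all 19 libraries, though in experiment 2 Tmed2 averaged more, at 83.1 CPM after SOR and 77.9 in the homecage, and Surf4 did so after SOR. It was at 97.05, 95.8, 95.6, 91.8 and 90.5 CPM in DN mice and at 94.3 to 101 in controls, with a median of 96.0. After SOR it was at 82.8, 83.9, 62.5 and 80.2 CPM and in the homecage at 73.9, 77.0, 81.5 and 77.6, with SOR replicate 3 again the low value. The log2 difference was -0.05 ± 0.03 with DN and 0.00 ± 0.10 after SOR. Its partner Tmed2 stood at -0.10 with DN and 0.10 after SOR, and Mcfd2 at -0.04 and 0.12.

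KDEL receptors return chaperones such as BiP that carry the KDEL signal. After SOR, when Hspa5 was higher, Kdelr1 and Kdelr3 lay below 0 and Kdelr2 above, at -0.03, -0.06 and 0.13. Kdelr1 (chr7:45872772-45883732) was at 32.5, 34.4, 20.1 and 32.0 CPM after SOR, against 29.2, 30.5, 30.4 and 32.0 in the homecage, so that SOR replicates 1 and 2 were above the homecage maximum, replicate 4 just under it and replicate 3 far below the others. Its log2 difference was -0.03 ± 0.14 after SOR. In experiment 1 it was at 30.2, 31.7, 28.5, 30 and 28.6 CPM in DN mice and at 27.7 to 32.6 in controls, with a median of 30.1, a difference of -0.01 ± 0.05.

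Kdelr3 (chr15:79516411-79527739) was the member with the smallest unadjusted p with DN and the only one of the 4 above 0. The DN mice were at 1.54, 1.14, 1.68, 1.28 and 1.18 CPM and the controls at 0.712 to 1.16, with a median of 0.977. DN replicate 2 was below the highest control and the other 4 DN mice were above all controls. The log2 difference was 0.48 ± 0.17 (95% interval 0.14 to 0.83; edgeR adjusted p = 0.999). These levels rest on 35 to 57 counts per DN library and 30 to 52 per control library. In experiment 2 it was at 0.749, 1.097, 0.520 and 1.22 CPM after SOR, against 1.11, 0.793, 0.967 and 0.982 in the homecage, a difference of -0.06 ± 0.27. Without the 3 marker-rich libraries of experiment 1 the DN difference was 0.44 ± 0.19.

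**Figure D3:**
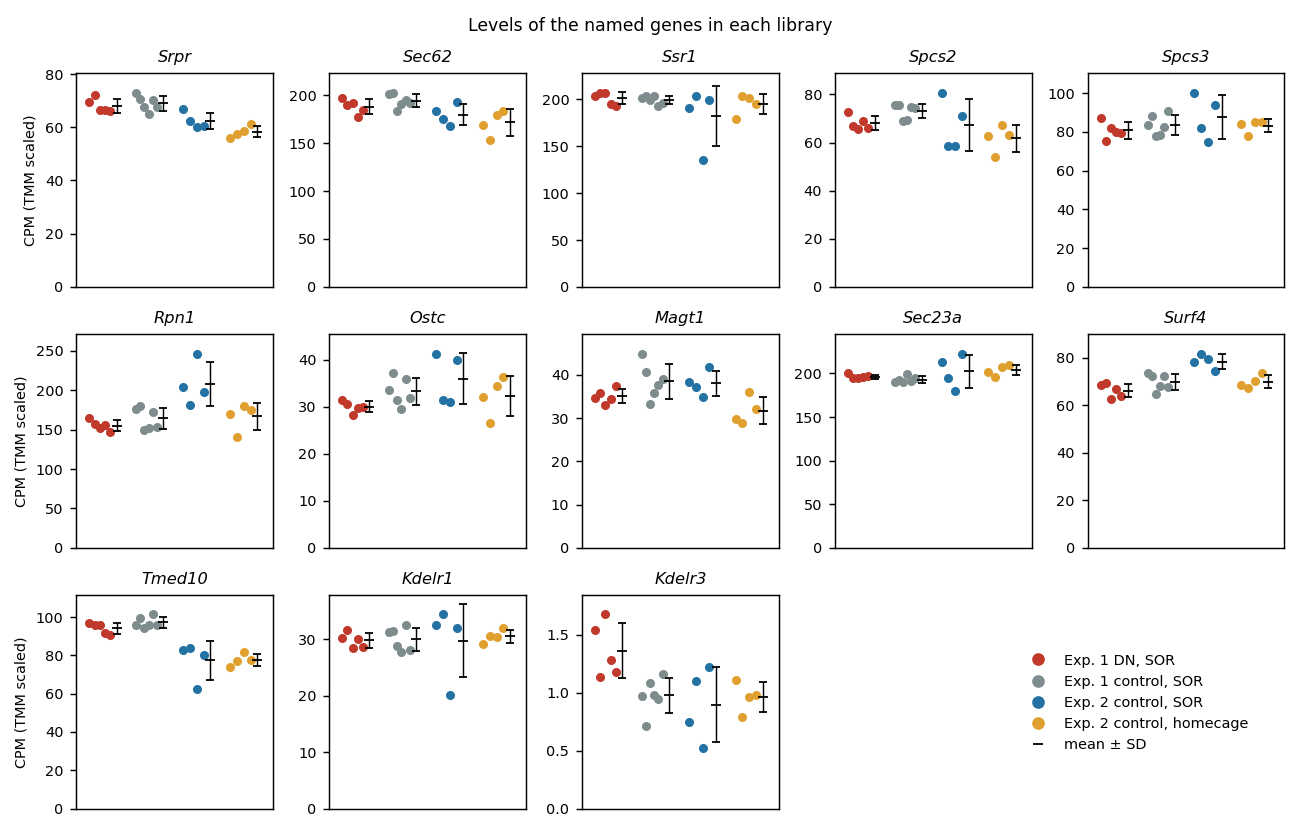
CPM in each library (points) of the 13 genes with the highest level of their complex, averaged over all 19 libraries, or a small unadjusted p, by group, with mean ± SD; each axis starts at 0. The groups overlap in every panel except Rpn1 and Surf4 in experiment 2, and 1 SOR library of experiment 2 lies low for Ssr1, Tmed10 and Kdelr1.

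The score of a library, its mean over the 46 genes of log2 CPM centred on each gene's mean in the experiment, put the same picture in 1 value per sample. DN mice scored between -0.04 and 0.03 and controls of experiment 1 between -0.04 and 0.06. SOR mice scored 0.10, 0.02, -0.07 and 0.11, and homecage mice -0.07, -0.13, 0.02 and 0.03. The lowest 2 homecage scores were those of the 2 tTA- mice, and the lowest SOR score was that of replicate 3. Of the 8 complexes, the KDEL receptors spread most among the SOR libraries, from -0.42 to 0.23. SRP and its receptor followed, from -0.06 to 0.53, with replicate 3, the library where Srp54a was high, at the top.

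**Figure D4:**
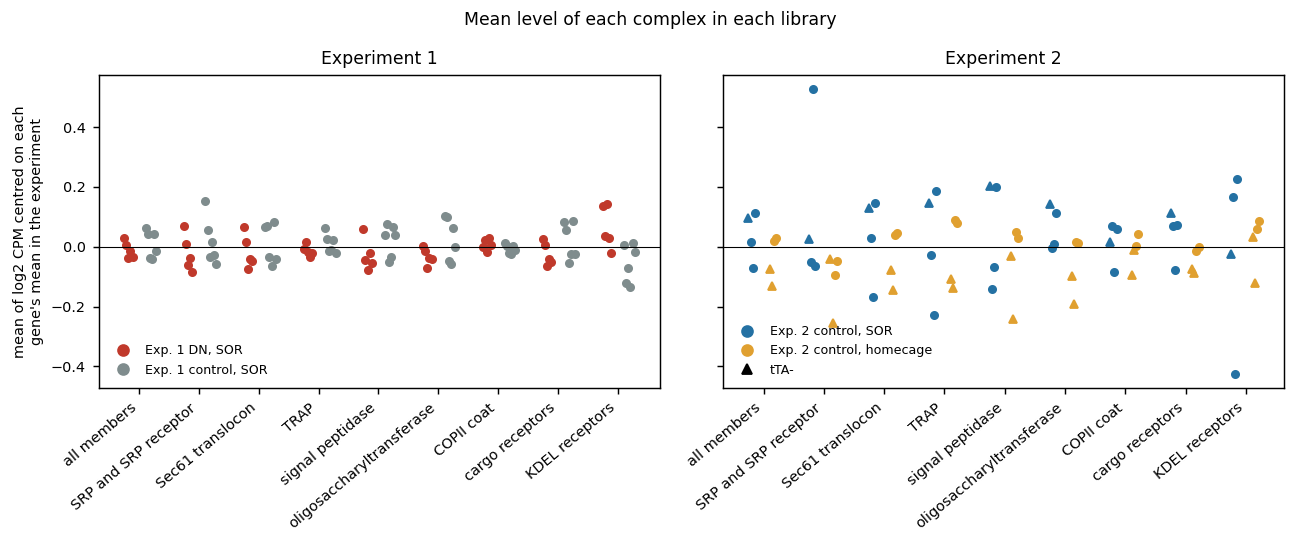
Mean centred log2 CPM of all 46 genes and of each complex in each library of the 2 experiments, with tTA- mice as triangles. The groups overlap for all members in both experiments, with scores of all members between -0.13 and 0.11.

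The 2 experiments share no library, so the direction of each gene can be set side by side. In 28 of the 46 genes (60.9%) the difference was below 0 with DN and above 0 after SOR, where 29.9% of 21740 genes tested in both were. Because 33 of the 46 lay below 0 with DN and 35 above 0 after SOR, a large overlap follows from those 2 counts. It is not a further result. The genes of a pathway vary together, so that these 28 are not separate observations, and Magt1 alone (2.17%) had an unadjusted p under 0.05 in both, as did 96 of all genes (0.442%). The choroid plexus markers were displaced in the same directions, without any being called: all 8 lay below 0 with DN (median -0.88) and all 8 above 0 after SOR (median 1.75). An unadjusted p under 0.05 was found for 0 of these 8 with DN and for 4 after SOR, beside 3.83% and 7.6% of all genes. Without the libraries rich in these markers the medians of the 46 genes were -0.01 with DN and 0.07 after SOR. Oligodendrocyte markers leaned the same way, with 6 of 8 below 0 with DN (median -0.02) and 7 of 8 above 0 after SOR (median 0.14), and in each comparison 2 of the 8 had an unadjusted p under 0.05 in that direction and none was called. Of the other lists, 2 of 6 astrocyte markers had such a p below 0 with DN and 1 above 0 after SOR, and 2 of 6 microglia markers had one above 0 after SOR and 0 with DN. All 5 blood markers lay above 0 with DN (median 0.20) and 4 of 5 after SOR (0.12), with such a p for 0 with DN and 1 above 0 after SOR. Of 5 endothelial markers, 1 above 0 and 1 below 0 had such a p after SOR. The 8 neuronal markers had medians of -0.06 and 0.01. The part of any marker list in the medians was otherwise not tested.

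Of the tTA comparison there is little to add. The 46 genes ranged from -0.07 (Spcs3) to 0.24 (Srp54a). The Srp54a value was -0.04 ± 0.12 (SE) without SOR replicate 3 and -0.07 ± 0.48 without SOR replicate 1. No complex had a median beyond 0.14, that of the KDEL receptors. Among the markers, all 8 of oligodendrocytes (median 0.20, 2 with an unadjusted p under 0.05) and all 6 of microglia (0.08) lay above 0, and 6 of 8 of the choroid plexus below 0 (-0.34). The neuronal marker Prox1, named after its values were seen, stood at -0.67 ± 0.18 with the groups apart (edgeR adjusted p = 0.350). None of the 46 markers was called with tTA, and their part in the members' values was not tested. SOR and tTA were compared on the same 8 libraries. With tTA as a term of the model the SOR differences of Rpn1, Magt1 and Surf4 were 0.29 ± 0.11, 0.24 ± 0.10 and 0.15 ± 0.08. Among tTA+ mice alone, 3 after SOR and 2 in the homecage, they were 0.23 ± 0.16, 0.15 ± 0.14 and 0.12 ± 0.12, and the median of the 46 genes was 0.01.

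Genes that work beside these 46 were taken from 8 further lists with 97 genes, of which 94 passed the filter on low counts in each comparison. None was called in any comparison, where 0.00893%, 0.0897% and 0.358% of all genes were with DN, SOR and tTA. With DN 66 of 94 (70.2%) lay below 0, beside 50% of all genes, with a median of -0.02, and 2 had an unadjusted p under 0.05, beside 3.83% of all genes: Emc6 of the membrane insertion complex, at 19.5 ± 0.312 CPM (SD) in DN mice and 21.0 ± 0.936 in controls (log2 difference -0.11 ± 0.05, SE), and Alg6, which adds glucose to the lipid-linked glycan, at 17.7 ± 0.809 and 16.2 ± 1.26 CPM (0.13 ± 0.06). After SOR 71 of 94 lay above 0, beside 51.5% of all genes, with a median of 0.06. An unadjusted p under 0.05 was found for 5 of 94, all above 0, beside 7.6% of all genes (3.67% above 0). The lists with the higher medians were the other cargo receptors and p24 proteins (13 tested, 0.18), the SNAREs of ER to Golgi fusion (8 of 8 above 0, 0.11) and the other SRP genes (6 tested, 0.10). Dolichol-linked glycan assembly, with 27 genes, had a median of 0.01.

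Lman2, a lectin that carries glycoproteins from the ER, had the smallest p of these genes after SOR. It was at 147 ± 7.47 CPM (SD) after SOR and 119 ± 9.77 in the homecage with groups apart, a log2 difference of 0.31 ± 0.08 (SE; edgeR adjusted p = 0.468). It was called only when all 19 libraries were fitted together, at 0.32 ± 0.07 and an adjusted p of 0.0340. Emc3 of the membrane insertion complex (0.22 ± 0.09), Ost4, a small subunit of oligosaccharyltransferase (0.38 ± 0.15), and Tmed3 of the p24 family (0.23 ± 0.10) also had an unadjusted p under 0.05. The fifth gene, outside the naming rule and added after its values were seen, was Gmppb, which makes GDP-mannose (0.36 ± 0.16). With DN Lman2 differed by -0.06 ± 0.05.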

How the data were processed

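The authors deposited whole-number counts per gene in 1 table of 51789 genes and 19 libraries, per the file headers. Frozen tissue was lysed in Trizol and its RNA, depleted with Ribo-Zero Gold, went through Illumina's TruSeq preparation, per the labels' protocols. The submitters' processing notes name STAR, SAMtools 1.6, featureCounts 1.4.4 and mm10. The annotation, the strand setting and the handling of multiply mapped reads are not given in the sources used here.

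Symbols, positions and exon lengths came from GENCODE M21 (GRCm38), which held 51596 of the identifiers. Each experiment was fitted alone with edgeR 4.0.16 in R 4.3.3 (TMM, filterByExpr, robust quasi-likelihood F test, two-sided, Benjamini-Hochberg over all tested genes, called at an adjusted p under 0.05). The tTA comparison had a term for exposure. SE is the absolute log2 fold change over the square root of F, CPM were scaled by TMM, and log2 CPM had a prior count of 2. The scripts were tested on simulated data in which 200 genes changed by about 2 log2 units. With DN, SOR and tTA they recovered 200, 198 and 198 of these, with 11, 15 and 12 false calls. Changes as small as those of the members were not simulated. Replicates differed by more than counting noise (chi-square per degree of freedom 4.63 to 73.4), so none was counted as a repeat.

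The members and lists were chosen with earlier results of these data known, so lists carry counts and medians and no test. Library values are given for members called, for up to 6 per comparison with the smallest unadjusted p under 0.05, and for the member of each complex with the highest mean CPM; Srp54a and Lman1 were added after their values were seen. Of the 97 further genes, up to 4 per comparison with the smallest unadjusted p under 0.05 are named. Alternatives were an adjusted p of 0.1, DESeq2 1.42.0 and its size factors, no filter, at least 10 counts in every library, limma 3.58.1 voom, all 19 libraries in 1 fit, tTA as a covariate, a replicate block, tTA+ mice by themselves, no exposure term, and each library left out. Leaving out libraries with over 500 summed CPM of choroid plexus markers was chosen after seeing the data.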

Additional observations from a re-analysis of the deposited data

Results flagged for a closer look

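In groups of 4 to 6 libraries, 11 of 192 groups of values (5.73%) had a library far from the others by Dixon's test at its 95% critical value, which chance gives in about 1 of 20 groups.

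3 of the 9 values among members came from SOR replicate 3 of experiment 2. Srp54a was at 24.6 CPM there, where the other SOR libraries were at 8.28 to 8.61. Sec61a2, a pore subunit, was at 37.0 CPM (others 52.1 to 54.0), and Stt3a, a catalytic oligosaccharyltransferase subunit, at 47.0 (others 71.8 to 74.98).

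In the DN group Sec61a2 was at 55.0 CPM in replicate 5 (others 53.1 to 53.3), Sec61g at 25.2 in replicate 1 (others 21.8 to 22.4) and Sec11a at 22.8 in replicate 3 (others 24.6 to 25.1). Among controls of experiment 1 Sec61a2 was at 50.03 CPM in replicate 1 (others 52.4 to 53.7) and Ssr3 at 155 in replicate 3 (others 166 to 171). Spcs3 was at 78.0 CPM in homecage replicate 2 (others 84.3 to 85.3).

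The summed choroid plexus markers were at 1643 CPM in DN replicate 2 (others 27.6 to 172) and at 4115 in control replicate 1 of experiment 1 (others 21.5 to 1350).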

How the results depend on the processing

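The count of 0 called members held in all 20 alternatives with DN, 19 after SOR and 18 with tTA, where the smallest adjusted p of any member was 0.870, 0.111 and 0.331. The members' median kept its sign throughout: -0.04 to -0.01 with DN, 0.01 (tTA+ mice alone) to 0.13 (without SOR replicate 3) after SOR, and 0.02 to 0.12 with tTA. Counts at an unadjusted p under 0.05 were less stable, and the share of all genes moved too; it stands in brackets. With DN they were 1 with all 19 libraries (1.82%), 9 and 7 without controls 3 and 4 (4.98% and 4.24%), and 2 without the libraries rich in choroid plexus markers (3.52%). After SOR they were 13 with all 19 libraries (16.2%), 0 in tTA+ mice alone (1.63%), 1 and 0 without homecage replicates 1 and 2 (5.15% and 3.87%), 9 without SOR replicate 2 (13.5%) and 6 without the marker-rich libraries (14.3%). With tTA they were 1 with all 19 libraries (9.83%), without SOR replicate 2 (8.89%) and without the marker-rich libraries (6.71%). Precision was lower in experiment 2 (biological coefficient of variation 0.169, against 0.0940 in experiment 1).

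With the replicate number as a block, 0 members were called in each comparison, beside 2 of 22391, 9 of 22305 and 0 of 22904 genes. With tTA no gene at all was called, so the members' count carries no information there. The medians were -0.03, 0.09 and 0.07, and 6, 8 and 0 members had an unadjusted p under 0.05, beside 3.01%, 11.4% and 1.7% of all genes. Whether the numbers pair the libraries is not settled by these data, since the same-numbered pairs are few. The correlation of same-numbered deviations was -0.05 to 0.19 in experiment 1 and 0.05 to 0.39 in experiment 2. In turn, 1 of 5 and 2 of 4 correlated best with their own number.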
